A study of Mus musculus with 10 samples.

Results

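The 10 genes described here encode TNF, its receptors and genes of the NF-κB feedback circuit: Tnf, Ltb, Tnfrsf1a, Tnfrsf1b, Birc3, Nfkb1, Nfkb2, Rela, Nfkbia and Tnfaip3. They were chosen by gene symbol for their roles, with earlier results of these data known, and are 10 of 24452 genes with a symbol in the count table. All 10 passed edgeR's filter on low counts and are among the 15543 genes tested. RNA was sequenced from adjacent, treated but nontumoral, full-thickness back skin of C57BL/6 mice, with 5 wild type (WT) libraries and 5 libraries of the Zfp36ΔARE knockin, 1 library per sample. The knockin lacks the AU-rich element (ARE) of the Zfp36 3′-UTR, so that tristetraprolin (TTP), the protein Zfp36 encodes, is expressed at a raised level throughout the body and not in 1 cell type. Both genotypes received the same carcinogenesis protocol: 400 nmol of the mutagen DMBA once on shaved back skin at 7 weeks of age, then 10 nmol of the phorbol ester TPA given repeatedly each week for 20 weeks. Skin without DMBA/TPA was not analysed here, so the values compare genotypes within treated skin.

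TNF is made as a membrane protein, released by the protease ADAM17, and binds TNFR1 (Tnfrsf1a), found on most cells, and TNFR2 (Tnfrsf1b), found mostly on leukocytes and endothelial cells. Engaged TNFR1 gathers adaptors, kinases and ubiquitin ligases such as cIAP2 (Birc3), which lead to the IκB kinase. This kinase marks IκBα (Nfkbia) for destruction and frees NF-κB dimers, which switch on inflammatory genes and also their own brakes, IκBα and A20 (Tnfaip3), as well as Nfkb1, Nfkb2 and Birc3. TTP binds AREs in the 3′-UTR of mRNAs and speeds their decay, and Tnf mRNA is its best known target.

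Zfp36, the targeted gene, had 2152 ± 277 normalized counts in WT and 5427 ± 766 in Zfp36ΔARE libraries (SD, n = 5 each), with no overlap (log2 fold change 1.33, edgeR adjusted p = 0.00195). A normalized count is the deposited count scaled by edgeR's TMM factors to the mean library size. Total counts ran from 21638369 to 32583189 per library in WT and from 19595024 to 36419553 in Zfp36ΔARE skin. The libraries also differed in transcripts of chromosomes X and Y: Zfp36ΔARE replicates 2 to 5 held 3349 to 4262 counts of Y-linked genes, and the other 6 libraries at most 1 each. Only 1 Zfp36ΔARE library lacks these counts, so genotype and sex cannot be separated in most of the libraries, and that library is given beside the results. The labels number the libraries without naming animals, so p-values measure the spread between these samples.

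The members differ in the ARE sequences that TTP can bind, which are shown first because the genotype differs in TTP. In GENCODE's GRCm38 annotation, the pentamer ATTTA, the core of an ARE, occurred at least once in the 3′-UTR of 66.3% of 14295 tested genes, and the nonamer TTATTTATT, which contains it, in 7.26%. Only the strand of the gene was searched, and matches that overlap were each counted. The Tnf 3′-UTR of 764 bases held 8 pentamers and 5 nonamers, the most among the 10 genes. Tnfaip3, Nfkbia and Birc3 held 1 nonamer each, with 5, 2 and 4 pentamers. Nfkb1 held 4 pentamers, Tnfrsf1b 2 and Nfkb2 1, with 0 nonamers. Tnfrsf1a, Rela and Ltb held 0 of both in 3′-UTRs of 490, 714 and 156 bases. For 3 of the genes with a nonamer, a 30-base window is printed from the genome. It holds as many pentamers as any window in that 3′-UTR and, among those windows, as many nonamers as any. It is 1 of 4 windows equal in both counts in Tnf, of 2 in Tnfaip3 and of 22 in Nfkbia. The windows read 5′ to 3′ on the minus strand where these genes lie, with ATTTA in capitals.
Tnf: tATTTAttATTTATTTAttATTTATTTAtt
Tnfaip3: ttATTTAttatgaacttccaagttATTTAa
Nfkbia: ggaccacgttttATTTAttgtgcttttgat
They lie at chr17:35199677-35199706, chr10:19001753-19001782 and chr12:55489607-55489636. A match of these letters describes the sequence and is not a measured binding site.

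Of the 10 genes, 4 were lower in Zfp36ΔARE skin (Tnfrsf1b, Birc3, Nfkbia and Nfkb2), 0 were higher, and 6 did not pass an adjusted p of 0.05 in the quasi-likelihood test of edgeR, adjusted by Benjamini and Hochberg over all tested genes. At an unadjusted p below 0.05 in edgeR, 5 were lower and 0 higher, and DESeq2 also passed 5 lower and 0 higher, with Nfkb1 as the fifth in both. Over all tested genes 34.3% passed, 19.1% as lower and 15.3% as higher. Leaving out any 1 library kept these 4, leaving out WT replicates 1 and 3 together kept 3 of them, and a term for the Y-linked counts in the edgeR fit left 0 of the 10 and 0 of all tested genes. In the same 4 genes each Zfp36ΔARE library lay below each WT library, which was so for 11.9% of all tested genes. The median log2 fold change of the 10 genes was -0.15, beside 0.01 over all tested genes, and 8 of the 10 values were below 0. None of the 10 fell by more than 2-fold, which 6.64% of tested genes did (8.31% changed by that much in either direction). The counts come from whole skin, where fewer cells of a type and less RNA per cell cannot be told apart.

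**Figure D1:**
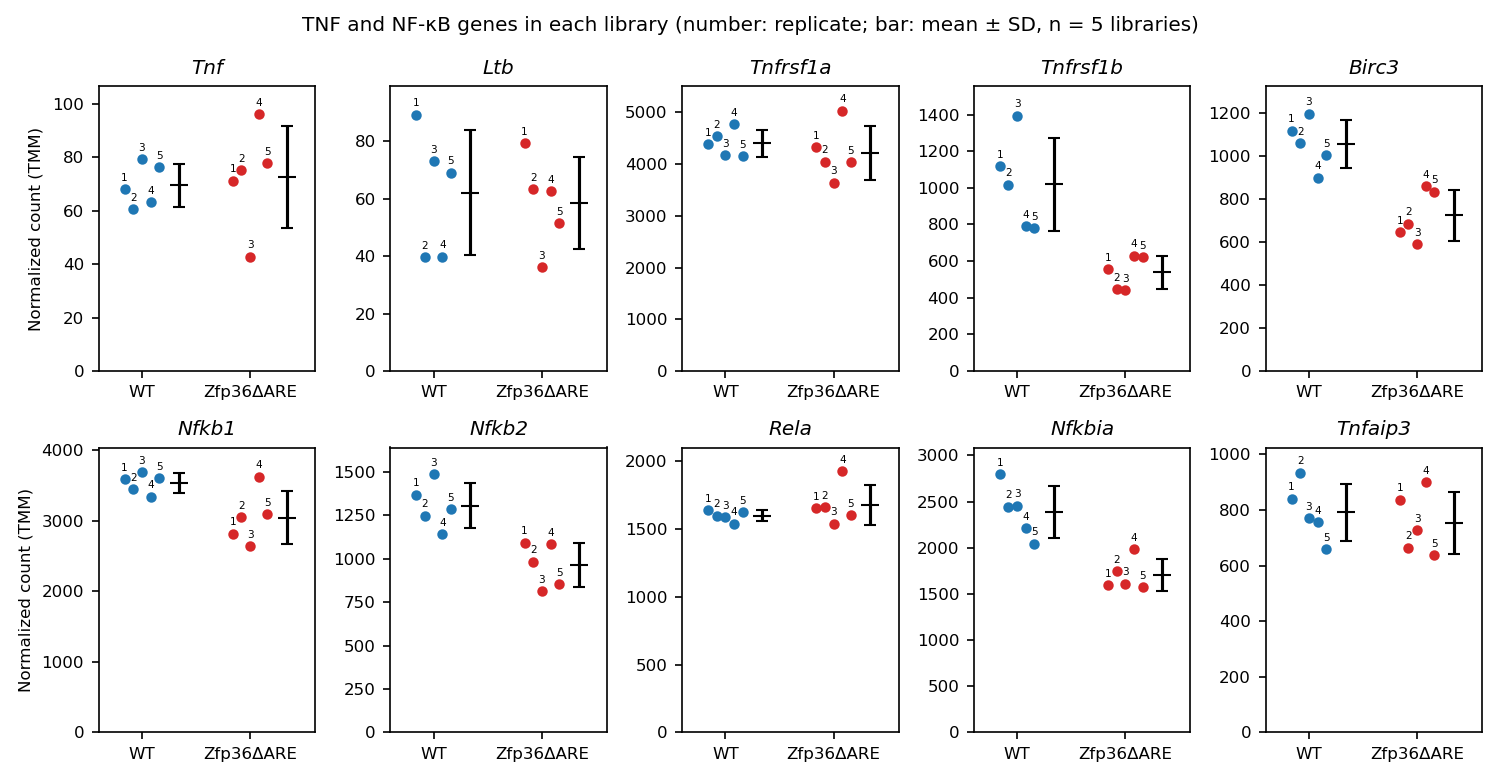
Normalized counts (TMM scale, vertical axis from 0) of the 10 genes in each WT and Zfp36ΔARE library, with a number for the replicate and bars for the mean ± SD. The Zfp36ΔARE points of Tnfrsf1b, Birc3, Nfkb2 and Nfkbia all lie below the WT points, and the groups overlap in the other 6 genes.

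The ligands did not differ beyond the spread between libraries. Tnf (chr17:35199381-35202007, minus strand, 4 exons) had 68.2, 60.6, 79.3, 63.1 and 76.4 normalized counts in WT replicates 1 to 5, and 71.2, 75.1, 42.8, 96.1 and 77.8 in Zfp36ΔARE replicates 1 to 5. All WT values lay within the range of the Zfp36ΔARE values, with both the lowest value (replicate 3) and the highest (replicate 4) among the Zfp36ΔARE libraries. The means were 69.5 ± 8.15 and 72.6 ± 19.2 (SD, n = 5 each; log2 fold change 0.06, 95% interval -0.38 to 0.51, edgeR adjusted p = 0.826). It had 39 to 95 raw counts per library, and a difference in either direction within that interval could not be detected with these libraries. Ltb, which encodes the membrane anchor of the lymphotoxin heterotrimer (chr17:35194439-35196320, plus strand, 3 exons), had 89.3, 39.6, 73.2, 39.8 and 69.1 normalized counts in WT and 79.4, 63.4, 36.2, 62.8 and 51.4 in Zfp36ΔARE libraries. High and low libraries occurred in both groups (log2 fold change -0.07, 95% interval -0.70 to 0.55, edgeR adjusted p = 0.854).

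The receptors differed from each other in their response. Tnfrsf1a (chr6:125349362-125362484, plus strand, 10 exons) had 4381, 4544, 4169.5, 4773 and 4158 normalized counts in WT libraries and 4333, 4049, 3644, 5034 and 4035 in Zfp36ΔARE libraries. The Zfp36ΔARE values spread to both sides of the WT values (log2 fold change -0.06, 95% interval -0.25 to 0.13, edgeR adjusted p = 0.588). Tnfrsf1b (chr4:145213463-145246870, minus strand, 10 exons) had 1118, 1017, 1394, 790.0 and 779 normalized counts in WT and 555, 448, 440.3, 630.2 and 621 in Zfp36ΔARE libraries. WT replicates 1 to 3 stood highest, WT replicates 4 and 5 lay closer to the Zfp36ΔARE libraries, and the groups did not overlap. Its mean fell from 1019.5 ± 255 to 539 ± 91.2 (SD, n = 5 each), 47.2% lower and the largest change of the 10 genes (log2 fold change -0.92, 95% interval -1.31 to -0.53, edgeR adjusted p = 0.00724). Without WT replicates 1 and 3 together, the 2 with the lowest hair shaft marker sums (490.5 and 76.3 CPM), its log2 fold change was -0.68 (edgeR adjusted p = 0.0194).

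Per kilobase of gene length, TNFR1 mRNA was the most abundant of the 10 in both groups, at 2044 ± 121 normalized counts per kb in WT. In WT, Nfkbia followed at 1514 ± 180.0 per kb and Nfkb1 at 858 ± 33.3, with ranges that did not overlap. Rela (590.2 ± 14.4) came next, then Nfkb2 and Birc3, and then Tnfrsf1b (208 ± 51.9) and Tnfaip3 (172 ± 22.2), where the members of each of these last pairs overlapped. In Zfp36ΔARE libraries Tnfrsf1b, at 109.7 ± 18.6 per kb, stood below Tnfaip3, at 164 ± 24.4. Tnf was the least abundant in both groups, in WT at 42.0 ± 4.93 per kb, not apart from Ltb at 56.8 ± 20.0. On this per-length scale, the ratio of TNFR2 to TNFR1 mRNA within a library ran from 0.0726 to 0.147 in WT and from 0.0486 to 0.0675 in Zfp36ΔARE libraries (two-sided exact permutation p = 0.00794, the lowest possible with 5 libraries per group, adjusted p = 0.0397 over the 45 pairs of the 10 genes). Of the 45 ratios, 15 passed an adjusted exact permutation p of 0.05, 9 of them at the smallest p. The 45 ratios share the same 10 genes and are not independent of each other or of the single-gene results. The share among pairs of other tested genes was not computed. Leaving out any 1 of 7 libraries (WT replicates 1 to 3 and Zfp36ΔARE replicates 1 to 4) moved the adjusted exact permutation p of the TNFR2 to TNFR1 ratio past 0.05, to at most 0.0649. Without WT replicates 1 and 3 together it was 0.1004, at a log2 difference of -0.59. The ranges of this ratio did not overlap with all 10 libraries. Leaving libraries out cannot make them overlap, so that they stay apart adds no support. Its adjusted p also depends on the other pairs, and without 2 libraries the lowest possible exact p is higher. These shifts therefore cannot decide whether the ratio rests on single libraries.

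Birc3, the ubiquitin ligase cIAP2 of the TNFR1 complex (chr9:7848699-7873186, minus strand, 9 exons), had 1118, 1061, 1197, 899 and 1004 normalized counts in WT and 647, 684, 591, 859.8 and 835 in Zfp36ΔARE libraries. The highest Zfp36ΔARE values, in replicates 4 and 5, stood just under the lowest WT value, in replicate 4. Its mean fell from 1056 ± 113 to 723 ± 118 (SD, n = 5 each), 31.6% lower (log2 fold change -0.55, 95% interval -0.81 to -0.29, edgeR adjusted p = 0.00948).

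**Figure D2:**
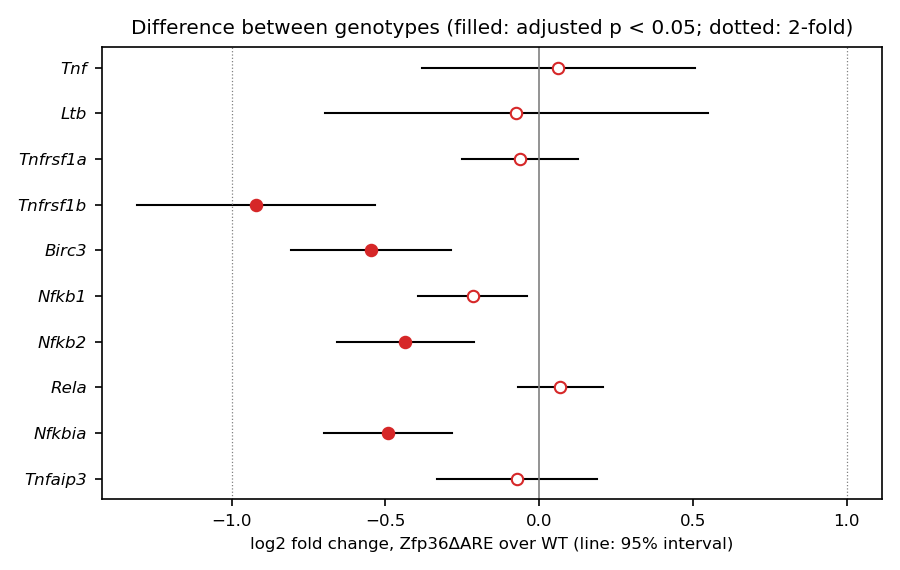
Log2 fold change of Zfp36ΔARE over WT (horizontal axis) for each of the 10 genes, with 95% intervals as lines and filled points where the edgeR adjusted p was below 0.05. Tnfrsf1b lies farthest from 0 at -0.92, and the intervals of Tnf and Ltb are the widest.

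The NF-κB subunits did not move alike. Rela, the transactivating subunit p65 (chr19:5637483-5648130, plus strand, 11 exons), had 1641, 1599, 1586, 1541 and 1627 normalized counts in WT and 1652, 1661, 1539.6, 1927 and 1603 in Zfp36ΔARE libraries. Its WT values lay close together, and the only library far from them was Zfp36ΔARE replicate 4 (log2 fold change 0.07, 95% interval -0.07 to 0.21, edgeR adjusted p = 0.407). Nfkb1, the precursor p105 of p50 (chr3:135584655-135691547, minus strand, 25 exons), had 3589.9, 3447, 3683, 3339.6 and 3603 normalized counts in WT and 2816, 3045, 2639.9, 3618 and 3086 in Zfp36ΔARE libraries. All Zfp36ΔARE libraries but replicate 4 lay below WT, and the gene did not pass (log2 fold change -0.22, 95% interval -0.39 to -0.04, edgeR adjusted p = 0.0588). Without Zfp36ΔARE replicate 4 it passed, at a log2 fold change of -0.29 (edgeR adjusted p = 0.0160).

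Nfkb2, the precursor p100 of p52 in the noncanonical pathway (chr19:46304320-46312385, plus strand, 23 exons), had 1369, 1247, 1485, 1142 and 1284 normalized counts in WT and 1092, 983, 812, 1083 and 854 in Zfp36ΔARE libraries. The groups did not overlap, and Zfp36ΔARE replicates 3 and 5 were lowest. Its mean fell by 26.0% (log2 fold change -0.44, 95% interval -0.66 to -0.21, edgeR adjusted p = 0.0123). Without WT replicates 1 and 3 together it no longer passed, at -0.34 (edgeR adjusted p = 0.0565). Within a library and per length, the ratio of Rela to Nfkb2 mRNA ran from 1.30 to 1.64 in WT and from 1.84 to 2.31 in Zfp36ΔARE libraries (log2 difference 0.51, exact permutation adjusted p = 0.0397). Rela stood higher against Nfkb2 in every Zfp36ΔARE library than in any WT library. Leaving out any 1 of 6 libraries (WT replicates 1 to 3 and Zfp36ΔARE replicates 1, 2 and 4) moved this adjusted exact permutation p past 0.05, to at most 0.0765. Groups that do not overlap cannot come to overlap when libraries are left out, and the adjusted p also depends on the other pairs. The ratio of Nfkb2 to Nfkb1 ran from 0.428 to 0.504 in WT and from 0.346 to 0.485 in Zfp36ΔARE libraries, overlapped, and did not pass (log2 difference -0.22, exact permutation adjusted p = 0.0962).

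Of the 2 feedback inhibitors, Nfkbia was lower and Tnfaip3 did not pass. Nfkbia, encoding IκBα (chr12:55489410-55492647, minus strand, 6 exons), had 2794, 2444, 2458, 2209.9 and 2044 normalized counts in WT and 1594, 1746, 1611, 1984 and 1573 in Zfp36ΔARE libraries. Zfp36ΔARE replicate 4 was the only one close to the lowest WT library, replicate 5. The mean fell from 2390.0 ± 284 to 1702 ± 172 (SD, n = 5 each), 28.8% lower (log2 fold change -0.49, 95% interval -0.70 to -0.28, edgeR adjusted p = 0.00744). Tnfaip3, encoding the ubiquitin-editing enzyme A20 (chr10:19000910-19015657, minus strand, 9 exons), had 839.9, 934, 771, 756 and 659 normalized counts in WT and 836, 664, 727, 899.9 and 638 in Zfp36ΔARE libraries. Its groups overlapped almost fully (log2 fold change -0.07, 95% interval -0.33 to 0.19, edgeR adjusted p = 0.646). The ratio of Rela to Nfkbia per length ran from 0.342 to 0.464 in WT and from 0.554 to 0.604 in Zfp36ΔARE libraries (log2 difference 0.55, exact permutation adjusted p = 0.0397). Leaving out any 1 of the same 6 libraries as for Nfkb2 moved this p past 0.05, to at most 0.0595. Here too the groups cannot come to overlap when libraries are left out, and the adjusted p also depends on the other pairs.

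Among the 4 members with a nonamer, Nfkbia and Birc3 were lower and Tnf and Tnfaip3 did not pass. Of the 1038 tested genes with a nonamer, 19.2% were lower and 17.6% higher in Zfp36ΔARE skin, beside 19.6% and 15.7% of the 13257 genes with 0. Tnfrsf1b, the most changed of the members, held 0 nonamers and 2 pentamers in 2324 bases.

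The promoters of the members were compared for the 10-base κB motif, which NF-κB binds, because several of them are its targets. The κB consensus was searched on both strands in RefSeq windows on GRCm38.p6 from 250 bases before to 50 after each RefSeq transcript start, which matched 9 of the 10 genes (not Nfkb1). A match lay in 4 of the 9 (Ltb, Tnfaip3, Nfkbia and Nfkb2), beside 6.39% of 11768 tested genes with a window. Nfkb2 held 5 matches over its 3 windows, of which 1 pair overlaps, and Tnfaip3 held 2 over its 2 windows. For each gene, 30 bases are shown 5′ to 3′ on the strand of the gene, with the match in capitals. The Nfkb2 match shown reads the same on both strands and fits the motif on each. In the other genes the motif reads on the opposite strand.
Nfkbia: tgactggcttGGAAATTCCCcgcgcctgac
Nfkb2: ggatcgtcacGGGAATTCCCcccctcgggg
Tnfaip3: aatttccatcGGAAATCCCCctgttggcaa
Ltb: aagggtgttcGGAAAGTCCCcgggcagggg
They lie at chr12:55492657-55492686, chr19:46304688-46304717, chr10:19015403-19015432 and chr17:35194410-35194439, and the matches start 29, 39, 12 and 87 bases before the RefSeq transcript start of their window. Nfkb2 and Tnfaip3 have several such starts, and for Nfkb2, Tnfaip3 and Ltb the one used here differs from the GENCODE gene start given above. Of these 4 genes, Nfkbia and Nfkb2 were lower in Zfp36ΔARE skin and Tnfaip3 and Ltb did not pass. Tnfrsf1b and Birc3, which were lower, held 0 matches in these windows, which says nothing of sites elsewhere.

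Genes around the members were followed by role, in lists chosen by function. Over all lists but the last and that of IκB kinase activation, edgeR passed 0 genes as higher, with 2 ligands and 0 other genes of these lists higher at an unadjusted p below 0.05, and DESeq2 also passed 0. Of 15 tested TNF superfamily ligands, Tnf and Ltb included, 3 were lower and 0 higher, with a median log2 fold change of -0.10. Tnfsf12, encoding TWEAK, had 189 ± 71.1 in WT and 89.1 ± 22.5 in Zfp36ΔARE skin (normalized counts ± SD, n = 5 each; log2 fold change -1.08, edgeR adjusted p = 0.0145). Tnfsf10, encoding the death ligand TRAIL, had 307 ± 84.5 in WT and 183 ± 38.9 in Zfp36ΔARE skin (log2 fold change -0.74, edgeR adjusted p = 0.0188). Of 23 tested receptors of the superfamily, 4 were lower and 0 higher, with a median of -0.06. Besides Tnfrsf1b these were Tnfrsf11a, the receptor RANK, with 273 ± 68.9 in WT and 154 ± 33.5 in Zfp36ΔARE skin (log2 fold change -0.83, edgeR adjusted p = 0.0124), Cd40, a costimulatory receptor of antigen-presenting cells (log2 fold change -0.77, edgeR adjusted p = 0.0153), and Tnfrsf14, the receptor HVEM (log2 fold change -0.70, edgeR adjusted p = 0.0232). Tnfrsf14 passed in 7 of the 10 fits that left out 1 library. Each of these shares lies near or below the 19.1% of all tested genes that were lower.

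The steps between receptor and NF-κB held 1 to 2 called genes a list, beside 19.1% of all tested genes that were lower. Of 4 genes of TNF release, Adam17, the protease that sheds TNF, was lower, with 2871 ± 134 in WT and 2413 ± 173 in Zfp36ΔARE skin (log2 fold change -0.25, edgeR adjusted p = 0.0146). Of 15 genes of the TNFR1 complex, 2 were lower and 0 higher, with a median of -0.01: Birc3 and Casp8, the initiator caspase (log2 fold change -0.33, edgeR adjusted p = 0.0152). Of 11 genes of IκB kinase activation, Map3k7, encoding the kinase TAK1, was higher (log2 fold change 0.19, edgeR adjusted p = 0.0467) and Btrc, the ligase subunit that recognises phosphorylated IκB, lower (log2 fold change -0.46, edgeR adjusted p = 0.0204). Map3k7 passed in 2 of the 10 fits that left out 1 library, and Btrc in 9, all but that without Zfp36ΔARE replicate 2 (edgeR adjusted p = 0.0519). Of 5 subunit genes, 2 were lower, Nfkb2 and Relb, the partner of p52 (log2 fold change -0.43, edgeR adjusted p = 0.0258). Relb passed in 6 of those 10 fits. Of 6 genes of the IκB family, Nfkbia alone passed, with a list median of -0.22. Of 11 negative regulators, 2 were lower and 0 higher, with a median of -0.17: Cyld, a deubiquitinase (log2 fold change -0.30, edgeR adjusted p = 0.0142), and Tnip3 (log2 fold change -0.70, edgeR adjusted p = 0.0410), whose mean count of 49.5 lay just under the minimum of 50 for named genes and which was named after its value was seen.

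Known response genes of NF-κB had the lowest median of the 9 lists. Of 23 tested, 10 were lower and 2 higher, with a median log2 fold change of -0.44, and 5 fell by more than 2-fold, beside 19.1% lower and 6.64% lower by more than 2-fold over all tested genes. The count of lower genes was 6 without WT replicate 3, Zfp36ΔARE replicate 2 or Zfp36ΔARE replicate 3, 3 without WT replicates 1 and 3 together, and 0 with the term for Y-linked counts. The endothelial adhesion molecule Sele had 76.7 to 177 normalized counts in WT and 25.3 to 56.7 in Zfp36ΔARE libraries (log2 fold change -1.55, edgeR adjusted p = 0.00705), and Selp, the other endothelial selectin of the list, 250.5 ± 69.1 in WT and 126 ± 31.1 in Zfp36ΔARE skin (log2 fold change -0.98, edgeR adjusted p = 0.0109). The gelatinase Mmp9 had 835 ± 300.5 in WT and 269 ± 154 in Zfp36ΔARE skin (log2 fold change -1.65, edgeR adjusted p = 0.0138). Cxcl2, Ccl20 and Il1b, named after their values were seen, also fell by more than 2-fold, at log2 fold changes of -2.70, -1.37 and -1.17. Their edgeR adjusted p were 0.0192, 0.0143 and 0.0342, at mean counts of 22.5, 40.4 and 86.3. Gadd45b, a stress-response gene, went the other way, with 607 ± 58.8 in WT and 799 ± 91.1 in Zfp36ΔARE skin (log2 fold change 0.40, edgeR adjusted p = 0.0133). Sele and Selp belong to endothelium, and Mmp9 is much expressed by myeloid cells. The paper also lists Mmp9 among transcripts with AREs raised in epidermal cells sorted from papillomas of mice lacking TTP in these cells. It cites Mmp9 as a TTP target in other cell types. Endothelial and macrophage markers were lower in the same libraries. The sum of neutrophil markers did not pass (exact permutation p = 0.849), with 1 of 5 tested markers lower. The part of these cell types in these values was not tested.

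**Figure D3:**
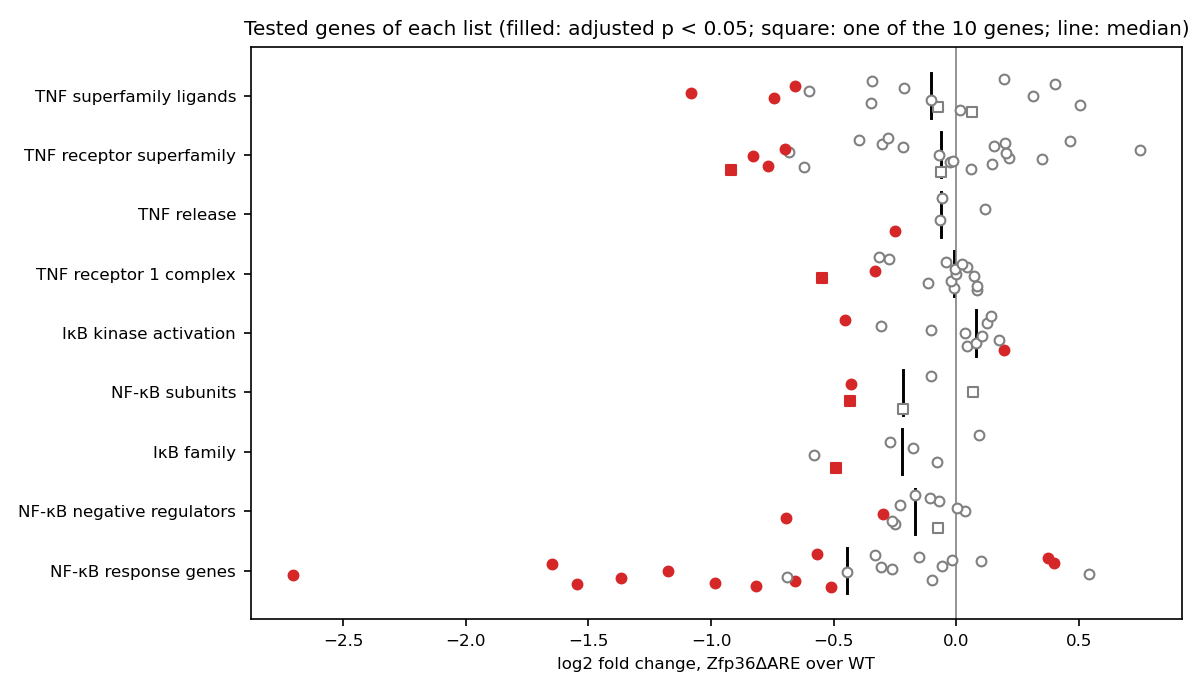
Log2 fold change of Zfp36ΔARE over WT (horizontal axis) for each tested gene of 9 lists by role, with squares for the 10 genes, filled symbols for an edgeR adjusted p below 0.05 and a line at each list's median. The response genes have the lowest median, -0.44, and the TNFR1 complex lies around 0 with a median of -0.01.

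The levels of several sets of cell type markers also differed between the groups, which does not tell fewer cells from less RNA per cell. The summed level of 12 macrophage markers was 667 to 1362 CPM in WT and 343 to 519.7 in Zfp36ΔARE libraries, and 11 of the 12 were lower. The 6 endothelial markers summed to 155 to 344 CPM in WT and 92.1 to 124 in Zfp36ΔARE libraries, with 6 of 6 lower, and 6 mast cell markers to 220.3 to 557 CPM in WT and 123 to 155 in Zfp36ΔARE libraries, with 5 of 6 lower and 1 higher. The sum of 9 hair shaft markers went the other way, from 76.3 to 3488 CPM in WT and 5404 to 15856 in Zfp36ΔARE libraries. Of these 9, 2 passed as higher in edgeR, and 9 were higher at an unadjusted p below 0.05. Each of these 4 sums did not overlap between groups (exact two-sided permutation test, p = 0.00794, adjusted p = 0.0238 over 12 lists). Skeletal muscle markers were lower in 8 of 8 (6678 to 35084 CPM in WT and 3214 to 9302 in Zfp36ΔARE libraries, exact permutation adjusted p = 0.0381), and adipocyte markers in 4 of 6 (1007 to 1963 CPM in WT and 703 to 1094 in Zfp36ΔARE libraries, exact permutation adjusted p = 0.0476). T cell markers summed to 27.6 to 49.5 CPM in WT and 29.1 to 40.5 in Zfp36ΔARE libraries, with 0 of 9 passing in edgeR (0 also at an unadjusted p below 0.05). Basal keratinocyte markers summed to 8012 to 12469.8 CPM in WT and 6844 to 13262 in Zfp36ΔARE libraries, with 2 of 7 lower and a sum that did not pass (exact permutation p = 0.500). The keratinocyte sums check that the tissue is skin. Fibroblast markers summed to 5924 to 12706 CPM in WT and 3374 to 9767 in Zfp36ΔARE libraries (exact permutation p = 0.278), with 3 of 6 lower, and suprabasal keratinocyte markers to 9652 to 15111 CPM in WT and 5633 to 13856 in Zfp36ΔARE libraries (exact permutation p = 0.127), with 1 of 4 higher. B cell markers stayed at or under 3.75 CPM in all libraries, and neutrophil markers ranged from 43.4 to 713 CPM, with the highest sum in Zfp36ΔARE replicate 4. The neutrophil markers with the most counts were S100a9 and S100a8, which the paper also reports in sorted epidermal cells. No marker of these lists was at 0 in every library. The part of these marker differences in the lower Tnfrsf1b, Birc3, Nfkb2 and Nfkbia was not tested.

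**Figure D4:**
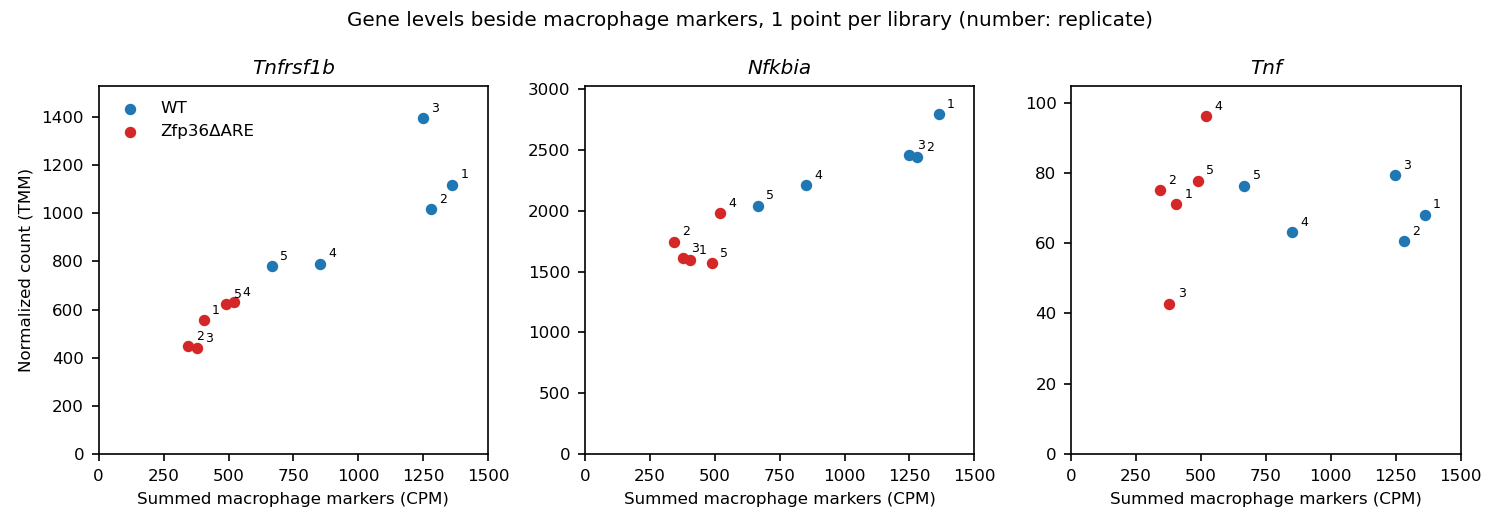
Normalized counts of Tnfrsf1b, Nfkbia and Tnf (vertical axes from 0) against the summed CPM of 12 macrophage markers (horizontal axis), 1 point per library with the replicate number. Tnfrsf1b and Nfkbia are high in the WT libraries with the most macrophage markers, replicates 1 to 3, while Tnf stays between 42.8 and 96.1 over the whole range.

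The Zfp36ΔARE library without Y-linked counts, replicate 1, lay below all WT libraries for Tnfrsf1b, Nfkbia, Nfkb1, Nfkb2 and Birc3, with the values given above. This rests on 1 library, and the share of all tested genes for which it holds was not computed. It therefore does not separate genotype from sex. With a term for the Y-linked counts in the fit, edgeR passed 0 of all genes and 0 members, with 3382 genes and 4 members (Tnfrsf1b, Nfkbia, Birc3 and Nfkb1, not Nfkb2) at an unadjusted p below 0.05. DESeq2 with the same term passed 948 genes and 2 members. In that edgeR fit the log2 fold changes were -0.88 for Tnfrsf1b (adjusted p = 0.201), -0.71 for Birc3 (adjusted p = 0.184), -0.58 for Nfkbia (adjusted p = 0.184) and -0.26 for Nfkb2 (adjusted p = 0.375). The 2 members that passed in DESeq2 were Nfkbia (adjusted p = 0.0392) and Birc3 (adjusted p = 0.0394). Within that fit the genotype rests on 1 library against 5.

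**Figure D5:**
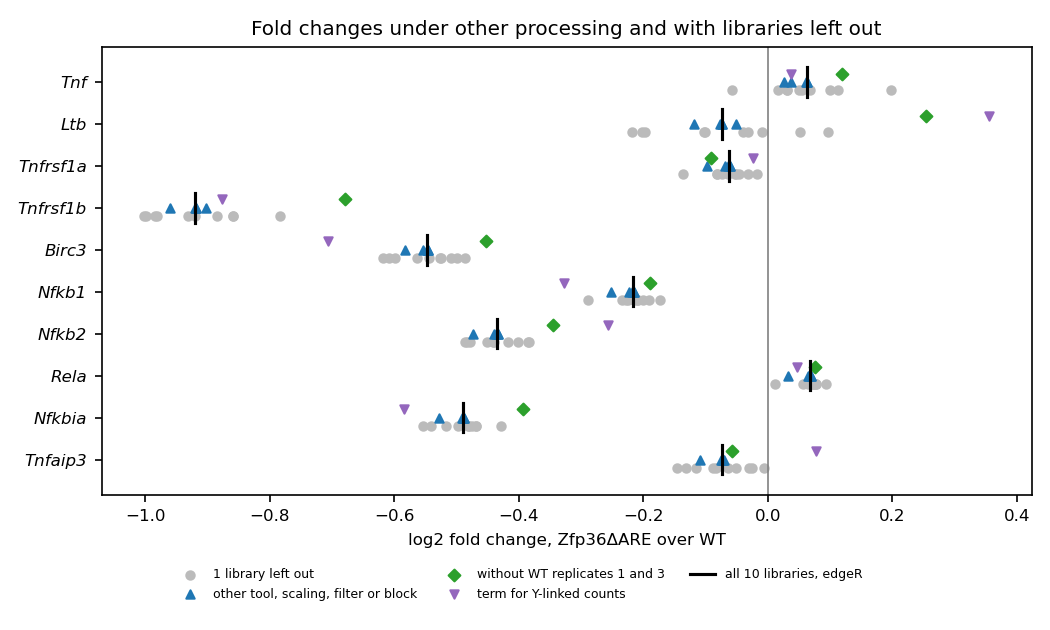
Log2 fold change of each of the 10 genes (horizontal axis) from all 10 libraries with edgeR (black line), with 1 library left out, with another tool, scaling, filter or block, without WT replicates 1 and 3, and with a term for Y-linked counts. Tnfrsf1b, Birc3, Nfkbia, Nfkb1 and Nfkb2 stay below 0 in all of them, and Ltb falls on both sides of 0.

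The genes most like each member over the 10 libraries differed between members, as Pearson's r of log2 CPM among 13690 genes with a mean of at least 50 normalized counts. These points share the difference between genotypes and the makeup of the samples, and the correlations describe these libraries. Tnfrsf1b ran closest to Il16, a leukocyte cytokine (r = 0.996, Spearman's rho = 0.976, r = 0.991 without the 2 libraries farthest from the median), Hmha1 (r = 0.993) and Mpp1 (r = 0.993). With the group means removed, r with Il16 was 0.987. Nfkbia ran closest to Lrp1 (r = 0.988, rho = 0.952, r = 0.993 without the 2 farthest), Selk (r = 0.976) and Gpr65 (r = 0.970). Birc3 ran closest to Anxa4 (r = 0.988, rho = 0.988, r = 0.979 without the 2 farthest), Mapre2 (r = 0.986) and Galns (r = 0.986). For Nfkb2 these were Pear1 (r = 0.984, rho = 0.952, r = 0.979 without the 2 farthest), Tcaf1 (r = 0.983) and Hspg2, encoding perlecan (r = 0.976). For Nfkb1 they were Hcar2 (r = 0.965, rho = 0.939, r = 0.912 without the 2 farthest), Stat6 (r = 0.961) and Lce1i (r = 0.960).

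Among the members that did not pass, Ltb ran closest to the lymphocyte genes Ctsw (r = 0.895, rho = 0.842, r = 0.802 without the 2 farthest) and Il2rb (r = 0.882), and to Zdhhc8 (r = 0.871). Tnfaip3 ran closest to AI427809 (r = 0.964, rho = 0.952, r = 0.945 without the 2 farthest), Cxcr4, the chemokine receptor (r = 0.957), and Capns1 (r = 0.938). Tnfrsf1a ran closest to Sbno2 (r = 0.946, rho = 0.867, r = 0.837 without the 2 farthest), Ift43 (r = 0.945) and Anxa2 (r = 0.940). Tnf ran closest to Abca7 (r = 0.897, rho = 0.794, r = 0.594 without the 2 farthest), 5830411N06Rik (r = 0.877) and Mapk7 (r = 0.859). For Rela the values with Tpm3 (r = 0.888, rho = 0.648), Arhgef11 (r = 0.883) and Ccndbp1 (r = 0.873) rested on 2 libraries, without which r was 0.27, 0.44 and 0.39.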

How the data were processed

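RNA was sequenced from treated skin of 5 WT and 5 Zfp36ΔARE samples. The authors discarded reads of poor quality, used STAR 2.5.2b to align to mm10 and counted fragments per gene with featureCounts (Subread 1.5.0-p1), per the submitters' notes and the methods, and deposited raw counts for 24454 rows. Annotation, strand and multi-mapping settings are not given in the sources used here. The table has 2 rows with no symbol (7.38e-05% of all counts), left out here.

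The deposited counts were analysed with edgeR 4.0.16 in R 4.3.3 (filterByExpr, TMM, robust quasi-likelihood fit with genotype as the only term, Benjamini-Hochberg adjustment). The scripts were tested on simulated data. Marker sums and ratios of members were tested by exact permutation, two-sided. Alternatives were DESeq2 1.42.0, other scalings, no filter, a replicate block, libraries left out and a term for Y-linked counts, which in DESeq2 was added after seeing the data.

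The members and lists were chosen with earlier results of these data known. Named genes were all members, Zfp36, up to 4 passing genes per list by smallest p and 3 like genes per member, each with a mean of at least 50 normalized counts. Tnip3, Cxcl2, Ccl20 and Il1b were named outside this rule. The 3′-UTR window of 1 further gene is not reported here.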

Additional observations from a re-analysis of the deposited data

Results flagged for a closer look

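In 84 groups of 5 libraries, 1 library far from the others was sought by Dixon's criterion. The groups were those of Zfp36, the members, the list genes named by rule, 4 ratios of members and the marker sums. Chance meets the criterion in about 1 of 20 groups, or about 4.2 here. It was met in 4. Tnfsf10, encoding TRAIL, had 454 normalized counts in WT replicate 3, where the other WT libraries had 256 to 303. Btrc, which recognises phosphorylated IκB, had 639 in the same library, where the others had 420 to 481. Both genes passed as lower in Zfp36ΔARE skin, and both still passed without WT replicate 3. The summed B cell markers were at 3.75 CPM in Zfp36ΔARE replicate 4, where the other Zfp36ΔARE libraries had 1.12 to 1.78. The summed neutrophil markers were at 713 CPM in that library, where the others had 43.4 to 167. The 2 markers with the most counts in that sum, S100a9 and S100a8, are not specific to neutrophils here. The paper names both among genes that differed in epidermal cells sorted from treated skin. The same library had the highest normalized counts of its group in 8 of the 10 members, all but Ltb and Nfkb2. The share of all tested genes highest in that library was not computed, so this count is not read as a trait of the members. The part of these marker transcripts in the values was not tested.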

How the results depend on the processing

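The same 4 members passed with DESeq2 and with upper-quartile scaling (5 each, Nfkb1 added), with DESeq2's size factors, with no filter and in each fit without 1 library (4 to 5). Without WT replicates 1 and 3 together, 3 of them passed. With a term for Y-linked counts edgeR passed 0 members, 0 genes and 0 with a fold over 2, and DESeq2 2, 948 and 566. Over all genes, where 5335 passed and 1292 with a fold over 2, leaving out WT replicates 1 and 3 gave 2504 and 526, and leaving out 1 library gave 3333 (Zfp36ΔARE replicate 2) to 5349 and 839 (WT replicate 3) to 1521. Of passing genes, 44.5% were higher, and 38.7% with upper-quartile scaling. Replicate numbers did not pair the samples (correlations of deviations between -0.18 and 0.09), and a replicate block gave 2740 genes, 4 members and 4 lower NF-κB response genes in place of 10. Without WT replicates 1 and 3, 0 ligands and 2 receptors of the superfamily were lower in place of 3 and 4. Without 1 library, Tnf lay between -0.058 and 0.20 and Ltb between -0.22 and 0.10. Values not past the threshold changed sign for Tnf without Zfp36ΔARE replicate 4 (-0.058), for Ltb without WT replicates 1 and 3 (0.25), with the Y-linked term (0.36), without WT replicate 1 (0.10) and without Zfp36ΔARE replicate 3 (0.05), and for Tnfaip3 with the Y-linked term (0.078). The causes were not tested. With 1 library left out, Tnfrsf1b stayed between -1.003 and -0.78, Nfkbia between -0.55 and -0.43, Nfkb2 between -0.49 and -0.38 and Birc3 between -0.62 and -0.49. Tnf and Ltb had the fewest counts of the members and the widest intervals.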
